A study of Mus musculus with 4 samples.

Results

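CD4+ T cells that carried CD25 but no Foxp3 were compared, gene by gene, with CD4+ T cells that carried neither, using 2 of the 4 arrays of the study. Both populations came from one sort. Spleens and lymph nodes were pooled from 25 mice, all male B6/129 F2 animals aged 5 to 8 weeks with a Foxp3-GFP knock-in allele. Magnetic depletion took out cells that bore B220, CD8, NK1.1, DX5 or CD11b, and the CD4+ cells left were sorted on CD25 and on GFP, which reports Foxp3. Every population, the CD25- Foxp3- cells included, therefore carried the knock-in allele and came from the same animals. The other 2 populations, CD25hi Foxp3+ and CD25lo Foxp3+ cells, are given beside the comparison only as further readings. Total RNA of each population was amplified in 2 cycles and hybridised to 1 Affymetrix Mouse Genome 430 2.0 array, so there was no replicate on either side and no p-value is given. All differences are sizes between a pair of arrays.

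CD25, encoded by Il2ra, lets a cell bind IL-2 with high affinity. Resting conventional CD4 T cells lack it, and T cell receptor signalling switches it on together with IL-2, growth and division, while regulatory T cells keep it under the control of Foxp3. Cells with CD25 and no Foxp3 are thus commonly taken as activated conventional cells, although some innate-like T cells and innate lymphoid cells also bear CD25.

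Values are intensities, the brightness of 1 probe set on a linear scale. Readings below a floor of 10.1, the 40th percentile of all values, were set to it, and a gene was measured if its brightest of the 4 arrays reached 32.5, the 60th percentile and here called the filter intensity. The 4 arrays had median intensities between 15.03 and 15.6, and between 39.7% and 40.3% of probe sets reached the filter intensity. In all, 9625 genes were measured. Il2ra, which encodes CD25, read 283 in CD25+ Foxp3- cells, against 22.3 in CD25- Foxp3- cells, and its other probe set gave 114 against a value under the floor. Foxp3 read 16.8 in CD25+ Foxp3- cells, against 17.6 in CD25- Foxp3- cells, under the filter intensity in both. The sort genes thus followed the labels, and as the sort was made on them they enter no list below.

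In CD25+ Foxp3- cells 1161 of the measured genes (12.1%) read at least 2-fold above their CD25- Foxp3- value, and 619 (6.43%) read at least 2-fold below it. These shares are the background against which each gene list is read. In a bulk sample, fewer cells of a type and less RNA per cell cannot be told apart. The higher side was also steeper: 290 genes were at least 4-fold and 72 at least 8-fold higher, while 39 were at least 4-fold and 3 at least 8-fold lower. The median log2 difference over all genes was -0.01, so the arrays were level with each other. Among genes that reached the filter intensity in both arrays, which leaves out those measured only because one array was bright, 816 of 8682 (9.4%) were at least 2-fold higher and 533 (6.14%) lower. Among the 8814 genes that reached it in both Foxp3+ arrays, which the comparison does not use, 935 (10.6%) were higher by that rule and 522 (5.92%) lower. Probe sets of the same gene give a measure of error within the arrays. Their log2 differences had a median SD of 0.36, and of 483 higher genes with several probe sets 82.2% had every probe set higher and 45.8% had every one at least 2-fold higher. For 258 lower genes those shares were 83.3% and 27.5%.

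**Figure D1:**
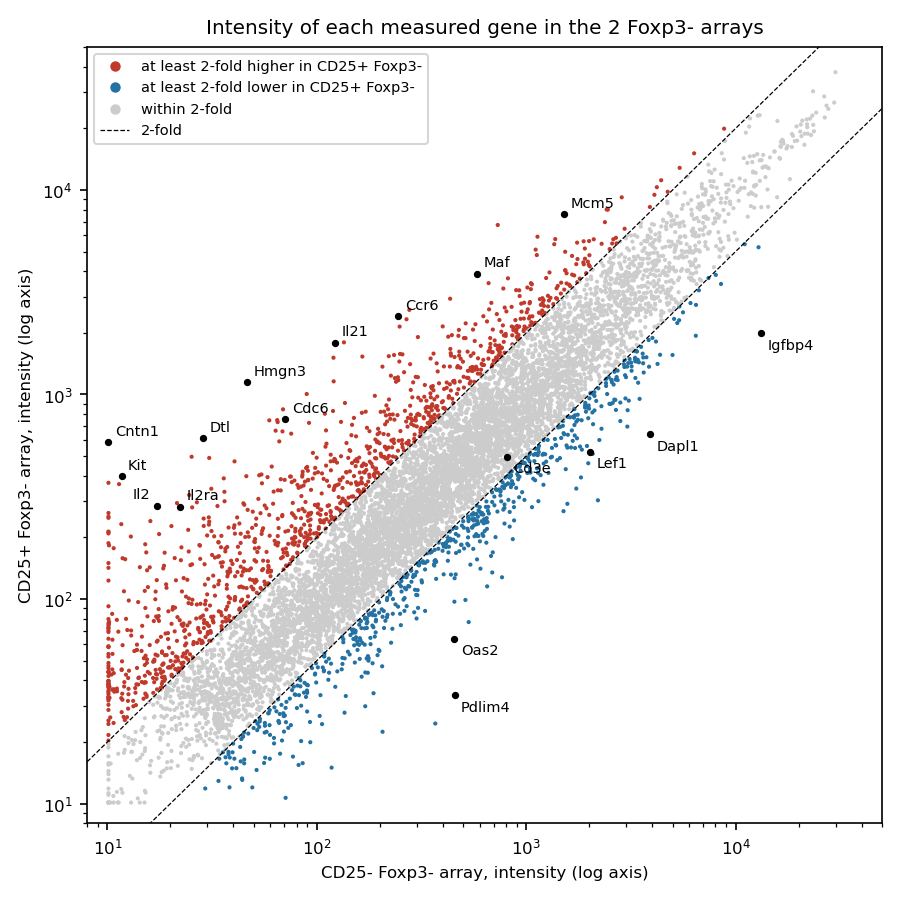
Intensity of each of 9625 measured genes in the CD25+ Foxp3- array (vertical, log axis) against the CD25- Foxp3- array (horizontal, log axis). Red points, 1161 genes, lie at least 2-fold above and blue points, 619 genes, at least 2-fold below the diagonal. Il2ra, Il21, Kit, Cntn1, Hmgn3 and Dtl stand far above it, and Igfbp4, Dapl1, Oas2 and Pdlim4 far below.

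Among genes that reached the filter intensity in both arrays, 8 of the 20 with the largest ratio are known from the copying, repair or division of chromosomes. Hmgn3, a nucleosome-binding protein, led with 1146 in CD25+ Foxp3- against 46.4 in CD25- Foxp3- cells, and its second probe set showed a log2 difference of 3.39. The chromatin remodeller Hells read 1799 against 135, its partner Cdca7 1513 against 120.1, and Uhrf1, which guides the copying of DNA methylation, 846 against 68.97. The log2 difference of Hells was 3.74 by its brightest probe set but 2.07 by the median of its probe sets. Fignl1 (homologous recombination), the checkpoint kinase Chek1, the replication licensing factor Cdc6, the condensin subunit Ncapg and the cyclin kinase partner Cks1b were between 8.91-fold and 11.2-fold higher. A second set of genes in the top 20 is known from immune and signalling roles. Il21 was 14.7-fold, the CCL20 receptor Ccr6 9.85-fold, the Rac activator Tiam1 9.29-fold and the interleukin-1 receptor Il1r1 9.24-fold higher. Tmem176a, a membrane protein, read 733 in CD25+ Foxp3- cells against 65.02 in CD25- Foxp3- cells, and its 3 probe sets lay between 3.49 and 3.60 on the log2 scale. The remaining genes were Eea1 (early endosomes), Cpe (carboxypeptidase E), Hebp1 (haem binding), Shmt1 (serine hydroxymethyltransferase), Fabp5 (fatty acid binding) and Rbm26 (RNA binding). The 4 probe sets of Rbm26 disagreed, from -0.14 to 3.27, so its value is uncertain.

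Of the 20 genes with the lowest ratio, 4 are on the list of naive and resting T cell genes. Igfbp4, a binding protein of insulin-like growth factors, read 1996 in CD25+ Foxp3- against 13217 in CD25- Foxp3- cells, and all 5 of its measured probe sets were lower, by log2 differences from -3.49 to -1.65. Dapl1, a gene of naive lymphocytes, read 639 against 3909, and Klf2, the quiescence factor that drives exit from lymph nodes, 697 against 3039.7. Tsc22d3, the glucocorticoid-induced leucine zipper, was 5.00-fold lower, although its 3 probe sets ranged from -2.32 to -0.37. Rasgrp2, which activates Rap1, was 4.40-fold lower, the complement regulator Cd55 4.30-fold, the poly(A) polymerase Tent5a 5.61-fold and the sodium pump subunit Atp1b1 4.29-fold. Vipr1 (a receptor of vasoactive intestinal peptide), Slc16a5 (a monocarboxylate transporter), Pde5a (a cyclic GMP phosphodiesterase), Frat2 (a GSK3-binding protein), Adh1, Cnga1, Dnah8, Gpr146, Tdrp and Oas2 were between 4.37-fold and 7.24-fold lower, and Pdlim4 13.5-fold. Cdk12, at 4.68-fold, had 6 probe sets between -2.23 and 0.06 and is uncertain.

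**Figure D2:**
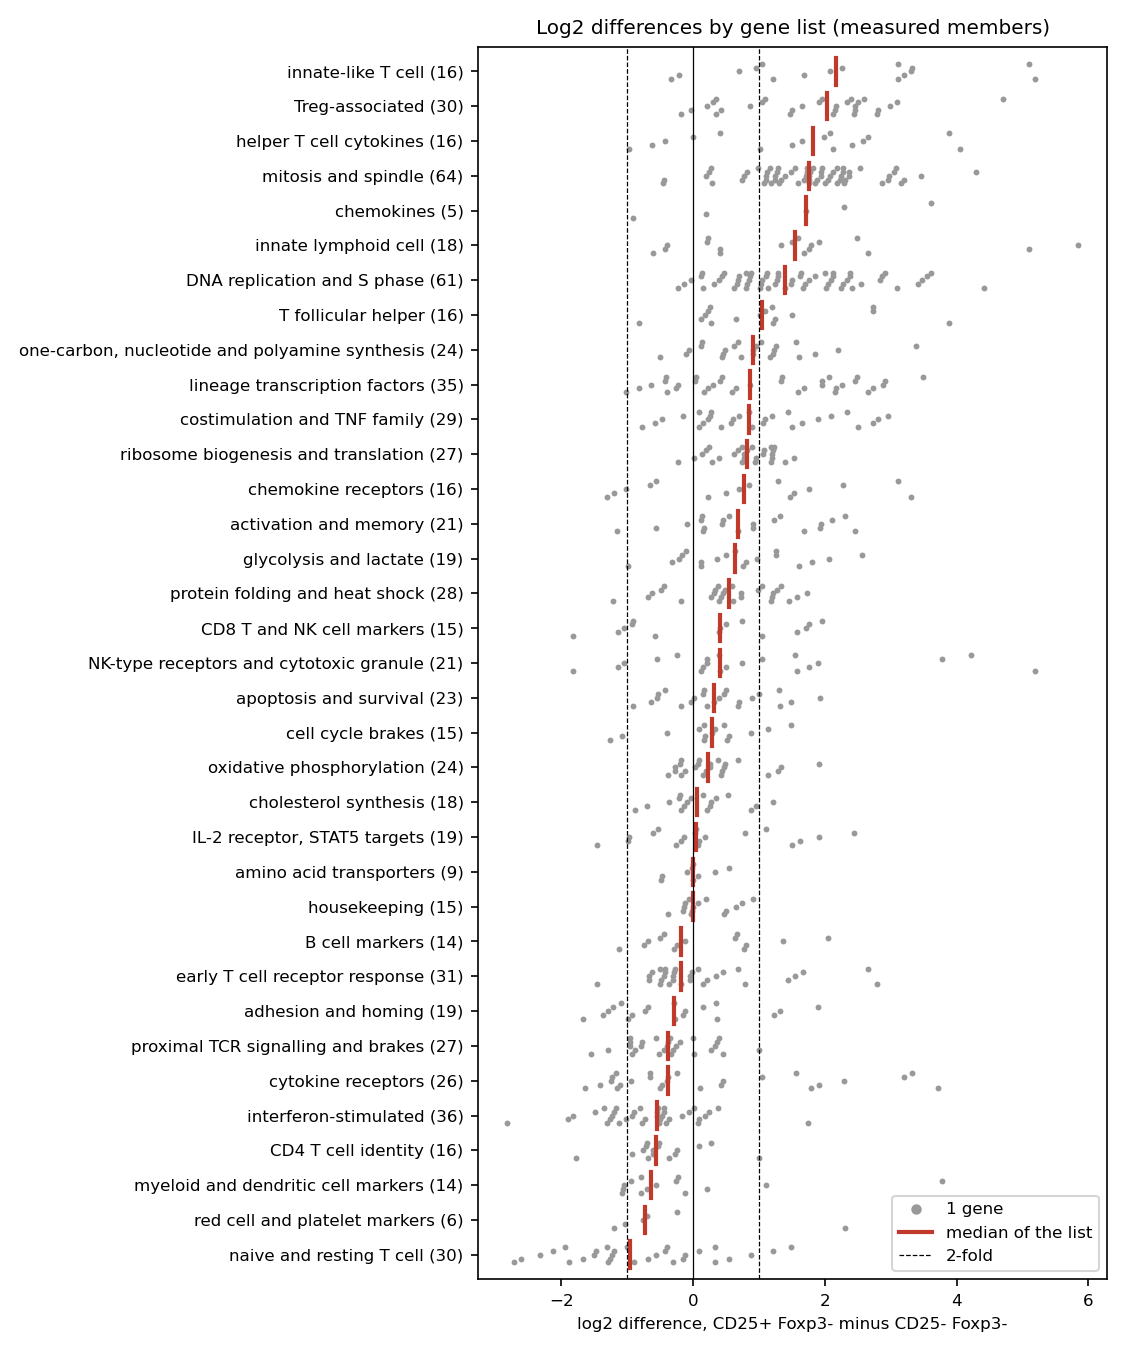
Log2 difference, CD25+ Foxp3- minus CD25- Foxp3-, of every measured member of each gene list with at least 5 measured members (number in brackets), with the list's median as a red bar and dashed lines at 2-fold. Innate-like T cell, Treg-associated, cytokine, mitosis and replication genes are among the lists with medians above 1, and naive and resting T cell genes have the lowest median, -0.95. For innate-like T cell genes that reached the filter intensity in both arrays the median was 1.36.

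Genes of DNA replication were higher in CD25+ Foxp3- cells from licensing to nucleotide supply. Of 61 measured genes on the list of DNA replication and S phase, 41 were at least 2-fold higher and none 2-fold lower, with a median log2 difference of 1.40 against -0.01 over all genes. The 6 subunits of the Mcm2 to Mcm7 helicase were all higher, 5 of them at least 2-fold, with log2 differences from 0.87 to 2.38. Mcm3 read 5909 in CD25+ Foxp3- cells, 2365 in CD25hi and 1798 in CD25lo Foxp3+ cells, and 1132 in CD25- Foxp3- cells. Cdc6, which loads the helicase together with Cdt1, read 756, 204 and 126 in those 3 populations against 70.8 in CD25- Foxp3- cells. Cdt1 itself was level, with 1402 in CD25+ Foxp3- cells, against 1262 in CD25- Foxp3- cells. Of the GINS complex, which joins the moving helicase, Gins1 and Gins2 were 4.83-fold and 11.1-fold higher, while Gins3 (125 against 90.6) and Gins4 (515 against 602) stayed within 2-fold. All 5 clamp loader genes Rfc1 to Rfc5 were higher, 3 of them at least 2-fold. The cyclin E gene Ccne2, which marks entry into S phase, read 231 against 30.5, the checkpoint mediator Clspn 208 against 17.7, the recombination factor Rad54l 247 against 28.8 and thymidine kinase Tk1 444 against 60.9. The 2 measured probe sets of Clspn lay at 0.97 and 3.56 on the log2 scale. Dtl, the substrate receptor of a ubiquitin ligase that acts in S phase, was 21.4-fold higher by its brightest probe set, and its 5 measured probe sets ranged in log2 difference from 0.59 to 4.42. Orc1, a subunit of the origin recognition complex, was at least 7.12-fold higher, since it lay under the floor in CD25- Foxp3- cells. The CD25+ Foxp3- reading was above both Foxp3+ readings for 56 of the 61 genes, against 37.3% of all measured genes. In 55 of the 61 genes the CD25+ Foxp3- array was the brightest of all 4, against 30.1% of all measured genes.

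Sequence before the start of some of these genes is shown because many of them are known targets of E2F, the factor family released by cyclin-dependent kinases at the start of S phase. Stretches of 250 bases upstream of the start were taken from the RefSeq promoter table (GRCm38.p6), and the motifs TTCCCGC and TTGGCGC were searched on both strands. At least 1 of them stood in 16 of 51 measured replication genes with a promoter in the table (31.4%), in 948 of 7898 measured genes (12%) and in 5.62% of all 32851 promoters. Such a match describes the letters and does not show binding. In the stretches below, written 5′ to 3′ on the gene's strand, capitals mark the matches. They begin 164 and 149 bases before the start in Mcm5 (chr8:75109259-75109508, plus strand), 109 and 46 before it in Mcm6 (chr1:128359706-128359955, minus strand) and 138 before it in Cdc6 (chr11:98907901-98908150, plus strand). No 2 matches overlap. Only stretches with a match are printed. Those of Mcm2 and Mcm3, searched likewise, held neither motif, while those of Mcm7, also not printed, held matches.
Mcm5: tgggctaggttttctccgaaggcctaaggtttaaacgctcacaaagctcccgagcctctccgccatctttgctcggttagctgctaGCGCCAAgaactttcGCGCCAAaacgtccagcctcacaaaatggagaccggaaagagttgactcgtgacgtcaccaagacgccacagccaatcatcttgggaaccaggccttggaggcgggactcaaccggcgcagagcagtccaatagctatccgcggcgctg
Mcm6: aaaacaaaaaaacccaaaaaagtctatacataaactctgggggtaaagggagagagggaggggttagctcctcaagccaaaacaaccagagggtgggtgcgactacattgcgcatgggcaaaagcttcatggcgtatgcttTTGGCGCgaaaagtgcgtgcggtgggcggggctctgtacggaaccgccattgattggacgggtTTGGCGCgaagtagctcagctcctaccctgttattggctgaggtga
Cdc6: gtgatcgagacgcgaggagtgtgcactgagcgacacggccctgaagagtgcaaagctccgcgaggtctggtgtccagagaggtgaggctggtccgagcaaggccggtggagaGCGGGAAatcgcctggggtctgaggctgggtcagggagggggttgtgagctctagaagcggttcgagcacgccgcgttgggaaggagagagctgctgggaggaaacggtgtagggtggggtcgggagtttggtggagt

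Mitosis genes were higher in the same array. Of 64 measured genes, 54 were at least 2-fold higher and none 2-fold lower, with a median log2 difference of 1.76. Ncapg2, a subunit of the condensin that compacts chromosomes, read 496 in CD25+ Foxp3- cells against 25.2 in CD25- Foxp3- cells, and 5 of 6 condensin genes were at least 2-fold higher. The chromosome passenger kinase Aurkb was 11.02-fold higher, the spindle checkpoint kinase Bub1 8.29-fold, the kinase Melk 8.49-fold, and the kinetochore genes Cenpk and Cenpi 7.90-fold and 7.78-fold. The 2 measured probe sets of Aurkb lay at 1.62 and 3.46 on the log2 scale. Anln, the cleavage furrow protein anillin, read 114 against 15.6. Exceptions were Pttg1 (securin), with 2505 against 3415, and the phosphatase gene Cdc25b, with 141 against 193. Beside the Foxp3+ arrays the mitosis genes stood differently from the replication genes. Mki67, the proliferation marker Ki-67, read 3698 in CD25+ Foxp3-, 2923 in CD25hi Foxp3+, 4178 in CD25lo Foxp3+ and 818 in CD25- Foxp3- cells. The CD25+ Foxp3- array was the brightest of the 4 for 40 of the 64 mitosis genes. No test of that contrast between the lists was possible.

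A second motif, the cell cycle homology region TTTGAA, is known from promoters of genes that peak in G2 and mitosis. Searched on both strands, it stood upstream of 20 of 54 measured mitosis genes (37.0%), 10 of 51 replication genes (19.6%), 1001 of 7898 measured genes (12.7%) and 15.99% of all promoters in the table. Shown as examples of mitosis genes that hold it are Ncapg2 (chr12:116405186-116405435, plus strand), with a match beginning 18 bases before the start, and Cks1b (chr3:89418292-89418541, minus strand), with matches at 77 and 17 bases. Capitals again mark the matches.
Ncapg2: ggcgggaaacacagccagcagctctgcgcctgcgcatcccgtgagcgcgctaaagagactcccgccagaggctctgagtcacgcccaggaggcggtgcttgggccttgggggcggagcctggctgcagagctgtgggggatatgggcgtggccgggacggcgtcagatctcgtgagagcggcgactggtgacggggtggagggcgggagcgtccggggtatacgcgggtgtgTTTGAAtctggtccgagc
Cks1b: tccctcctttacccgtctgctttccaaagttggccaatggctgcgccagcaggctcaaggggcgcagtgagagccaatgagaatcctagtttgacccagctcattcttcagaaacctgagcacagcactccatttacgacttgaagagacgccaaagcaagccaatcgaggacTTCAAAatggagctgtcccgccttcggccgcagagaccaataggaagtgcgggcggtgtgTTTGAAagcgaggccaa

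**Figure D3:**
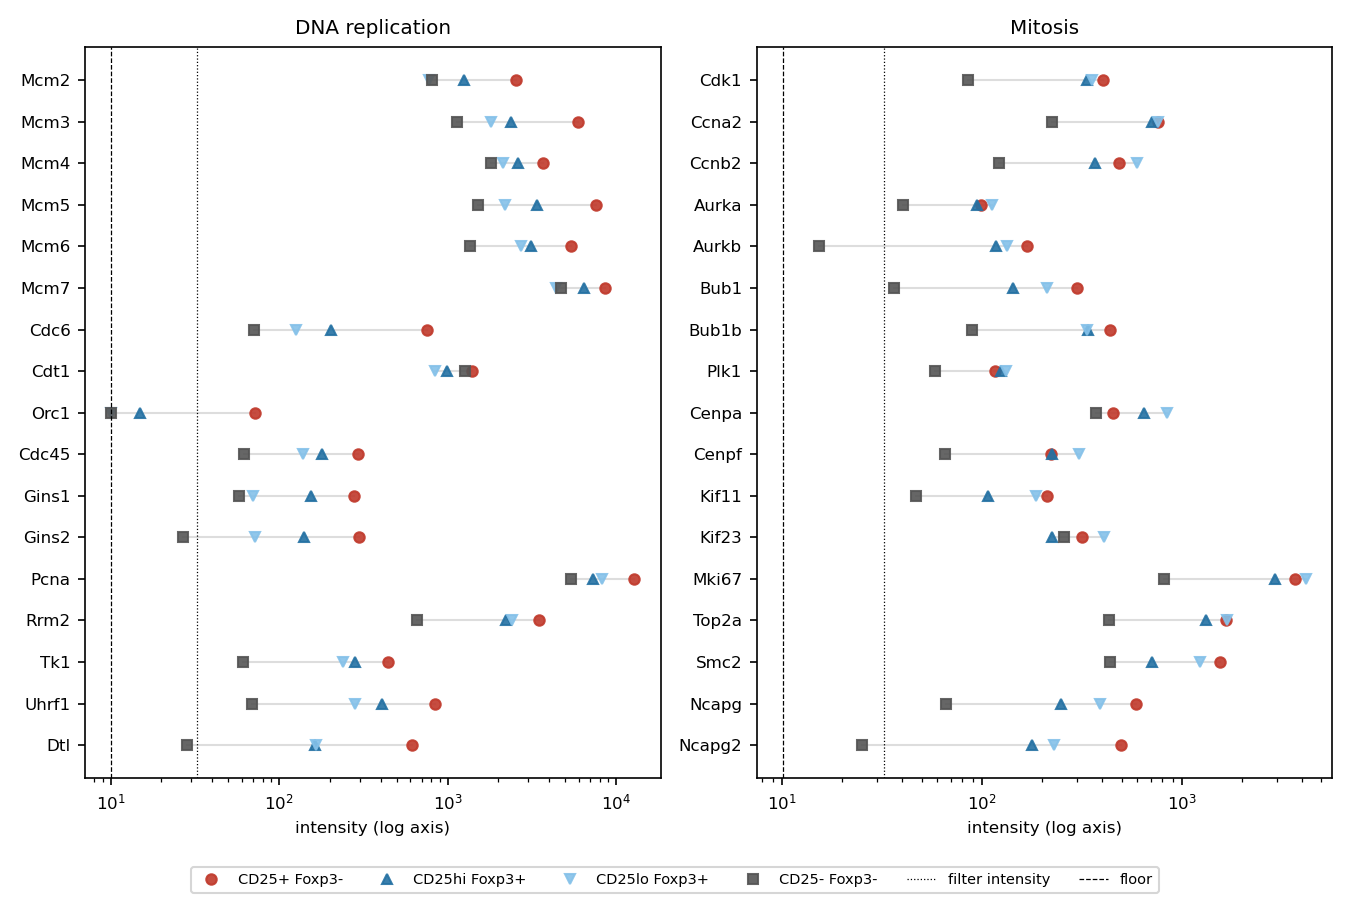
Intensities (log axis) of replication genes (left panel) and mitosis genes (right panel) in the CD25+ Foxp3- (red circles), CD25hi Foxp3+ and CD25lo Foxp3+ (blue triangles) and CD25- Foxp3- (grey squares) arrays, with the floor and the filter intensity as vertical lines. CD25- Foxp3- cells read lowest for most genes, and the red circles lie clear of the triangles for Cdc6, Dtl and Mcm3 but among them for Mki67, Plk1 and Cenpf.

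Genes that restrain the cell cycle did not move as one. Of 15 measured, Rbl2 (a retinoblastoma relative) and Cdkn2c were 2.81-fold and 2.21-fold higher, while Btg2 and Cdkn2d were 2.39-fold and 2.12-fold lower in CD25+ Foxp3- cells. Cdkn1b, which encodes the inhibitor p27, read 388 against 309.

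Biosynthetic genes that accompany growth were higher as well. Of 24 genes of one-carbon, nucleotide and polyamine synthesis, 10 were at least 2-fold higher, none 2-fold lower and 21 higher by any amount, with a median log2 difference of 0.91. Shmt1 read 665 in CD25+ Foxp3- against 63.6 in CD25- Foxp3- cells. Odc1, the rate-limiting enzyme of polyamine synthesis, read 5109 against 1109, and its 3 measured probe sets were 3.82-fold to 6.64-fold higher. Psat1 (serine synthesis), Pfas (purine synthesis), Adss, Ahcy, Ctps and the spermidine synthase Srm were between 2.31-fold and 3.59-fold higher. Among 27 genes of ribosome biogenesis and translation, 26 were higher by any amount, against 49.2% of all genes, and 10 at least 2-fold, led by the nucleolar factors Nop58 (2.88-fold), Nolc1 (2.64-fold) and Dkc1 (2.34-fold). In 25 of the 27 the CD25+ Foxp3- array was the brightest. The glycolysis and lactate list, which also holds Hif1a and Mif, not themselves glycolytic enzymes, had 6 of 19 genes at least 2-fold higher, with none 2-fold lower. Hexokinase 2 (Hk2) read 224 against 37.9, Tpi1 2276 against 649.8 and Hif1a 5752 against 1376, whereas Pdk1, which holds pyruvate back from mitochondria, read 685 against 1356. Hk1, Pgam1 and Mif were the other 3. By any amount 14 of the 19 were higher and 5 lower, among the latter the glucose transporters Slc2a1 (681 against 852) and Slc2a3 (744 against 866). Chaperone genes had 9 of 28 at least 2-fold higher, among them the mitochondrial chaperonin pair Hspe1 (3.31-fold) and Hspd1 (2.31-fold), and 1 lower, the stress factor Ddit3 (2.31-fold). All 8 measured subunits of the cytosolic TRiC chaperonin were higher, by log2 differences from 0.32 to 1.34. Amino acid transporter genes, 9 of them, all stayed within 2-fold, and cholesterol synthesis genes had 1 of 18 at least 2-fold higher, Idi1.

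Most measured effector cytokine genes were higher in CD25+ Foxp3- cells. Of 16 measured, 11 were at least 2-fold higher and none 2-fold lower, and 6 further cytokine genes with a probe set (Il3, Il5, Il6, Il9, Csf2 and Il24) lay under the filter intensity in all 4 arrays. Only 10 of the 16 reached that intensity in both arrays, 6 of them at least 2-fold higher, and genes such as Il2 and Il17a were measured through the CD25+ Foxp3- array. The list's median log2 difference was 1.82, but 1.26 with the filter in both arrays. It was 0.50 from the second probe set of the genes that have one. Il2, the growth factor bound by CD25, read 286 in CD25+ Foxp3- cells, 10.7 in CD25hi and 14.1 in CD25lo Foxp3+ cells, and 17.3 in CD25- Foxp3- cells. Il21, which helps B cells, read 1794, 15.3 and 59.8 in those 3 populations against 122 in CD25- Foxp3- cells. Both were highest in CD25+ Foxp3- cells, and for Il2 the other 3 readings were under the filter intensity. Tnfsf11 (RANKL) read 1909 against 304, the macrophage growth factor gene Csf1 82.3 against 15.5, and the IL-6 family member Lif 90.4 against 15.2. The 3 measured probe sets of Csf1 ranged in log2 difference from 0.50 to 2.40. The helper type 1 cytokine Ifng was 3.97-fold higher, the helper type 2 cytokine Il4 2.02-fold and Il17a, of helper type 17 cells, 4.22-fold, with 49.6 against 11.7 or less in every other array. Il13, also of helper type 2 cells, stayed within 2-fold, with 37.3 against 28.2. Tnf was level, with 119.6 against 120.3. Il10 was at least 4.36-fold higher but read 44.1 in CD25+ Foxp3- cells, below the 207 and 395 of CD25hi and CD25lo Foxp3+ cells. Of 5 measured chemokine genes, Ccl1, Cxcl10 and Xcl1 were 12.2-fold, 4.90-fold and 3.27-fold higher, and Ccl5 read 453 against 854. Ccl1 and Xcl1 were measured only through the CD25+ Foxp3- array, and of the 3 chemokine genes that reached the filter intensity in both arrays 1 was at least 2-fold higher, Cxcl10.

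The stretches before the starts of Il2 and Il21, neighbours on chromosome 3, are shown because these genes had the widest differences among the cytokines and are induced through NFAT, the calcium-dependent factor of T cell receptor signalling. Capitals mark GGAAA, the NFAT core, on either strand. It begins 137 and 47 bases before the start in Il2 (chr3:37125955-37126204, minus strand) and 201, 118 and 74 before it in Il21 (chr3:37232637-37232886, minus strand). So short a motif is common: it stood upstream of 12 of 14 measured cytokine genes with a promoter in the table (85.7%), 59.1% of measured genes and 55.6% of all promoters. The AP-1 motif TGANTCA stood upstream of 3 of the 14 cytokine genes (21.4%), 5.03% of measured genes and 6.75% of all promoters. The stretches of Il2 and Il21 shown hold no TGANTCA.
Il2: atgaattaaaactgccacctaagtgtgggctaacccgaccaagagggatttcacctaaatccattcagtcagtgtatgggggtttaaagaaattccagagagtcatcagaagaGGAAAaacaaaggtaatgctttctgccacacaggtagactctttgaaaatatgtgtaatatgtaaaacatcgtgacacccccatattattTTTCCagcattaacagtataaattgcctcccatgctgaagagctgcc
Il21: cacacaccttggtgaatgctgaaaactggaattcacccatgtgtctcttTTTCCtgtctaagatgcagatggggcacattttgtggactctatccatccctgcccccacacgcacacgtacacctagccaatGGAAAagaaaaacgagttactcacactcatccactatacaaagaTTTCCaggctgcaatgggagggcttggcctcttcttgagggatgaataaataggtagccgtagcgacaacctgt

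**Figure D4:**
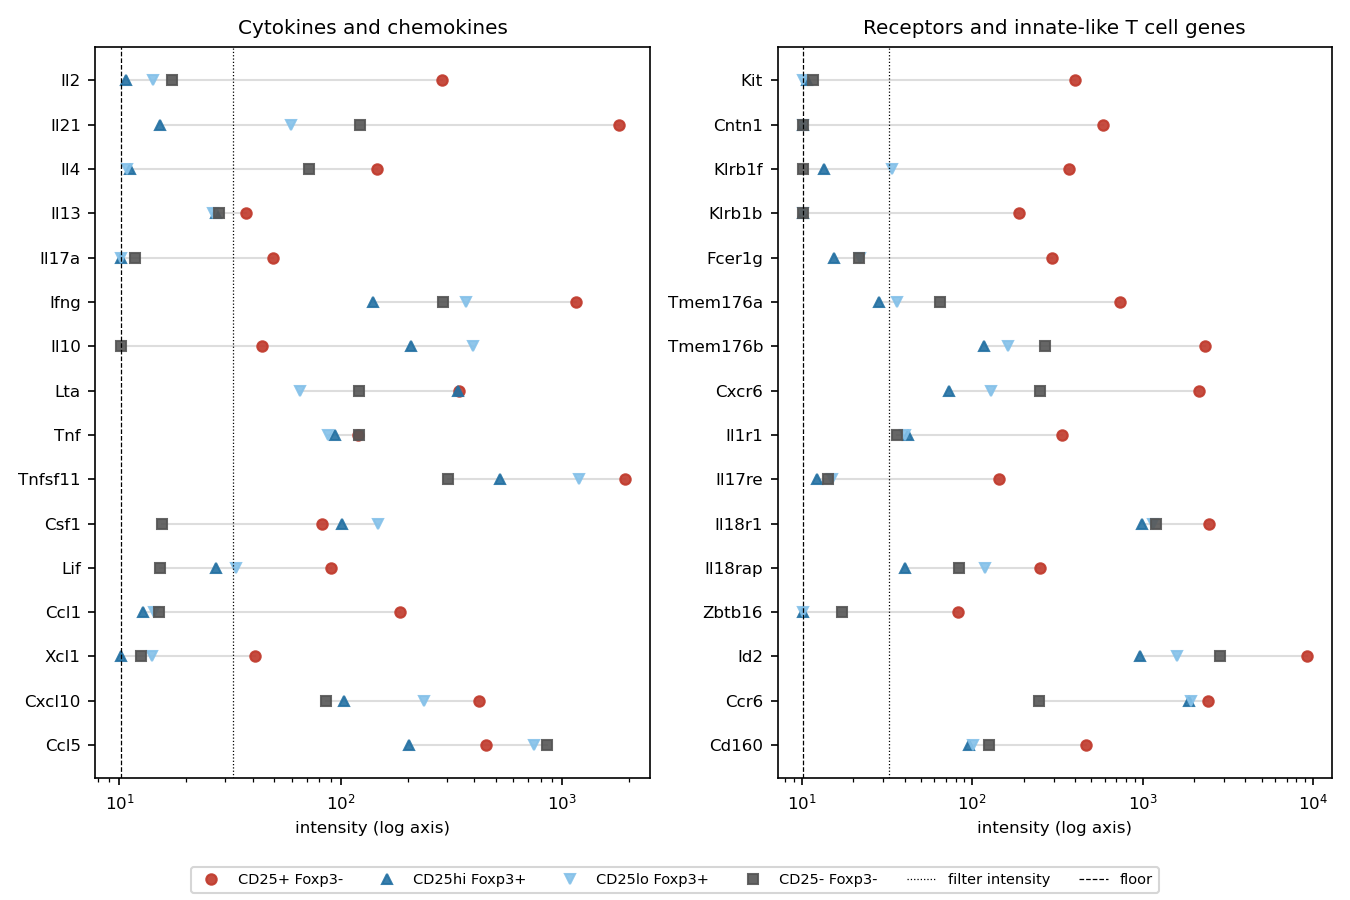
Intensities (log axis) of cytokine and chemokine genes (left panel) and of receptors and innate-like T cell genes (right panel) in the 4 arrays, marked as in the plot of replication and mitosis genes. The CD25+ Foxp3- array (red circles) reads highest for Il2, Il21, Kit, Cntn1, Cxcr6 and Tmem176a, while Il10 reads highest in the CD25lo and CD25hi Foxp3+ arrays and Tnf is level.

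Cytokine receptor genes went both ways. Of 26 measured cytokine receptor genes, 8 passed 2-fold on the higher side and 7 on the lower side in CD25+ Foxp3- cells, both above the background shares. Higher were the IL-1 family receptors Il1r1 (334 against 36.2), the decoy Il1r2 (322 against 24.6), Il18r1 and its partner Il18rap (2.06-fold and 2.95-fold), the IL-17 family receptors Il17re (10.02-fold) and Il17rb (3.45-fold), Il12rb1 (4.89-fold) and Il2rb (3.76-fold). The 2 measured probe sets of Il17re lay at 1.59 and 3.32 on the log2 scale. Il2rb, the beta chain that signals for IL-2 and IL-15, read 257 in CD25+ Foxp3- cells, below 1053 in CD25hi and 459 in CD25lo Foxp3+ cells, and 68.5 in CD25- Foxp3- cells. Lower were both chains of the interferon gamma receptor, Ifngr1 (267 against 834) and Ifngr2 (128 against 288), and Ifnar1, Il4ra, Il6ra, Tgfbr3 and Csf2rb. For Ifngr1 the CD25+ Foxp3- reading was also under those of CD25hi and CD25lo Foxp3+ cells, 792 and 1203. Il7r, the receptor of the survival cytokine of resting T cells, read 5075 against 6659.

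Among 16 chemokine and egress receptors, 7 were at least 2-fold higher: Ccr6, Cxcr6, Ccr9, Ccr4, Ccr2, Ccr8 and Cxcr3. Ccr9 and Ccr2 each had a measured probe set in the other direction, at -0.60 and -0.16 on the log2 scale. Cxcr6, a receptor of tissue-homing effector and innate-like T cells, read 2148 in CD25+ Foxp3- cells, 73.5 in CD25hi and 128 in CD25lo Foxp3+ cells, and 249 in CD25- Foxp3- cells. Ccr6 was bright in the Foxp3+ arrays too, with 2419 in CD25+ Foxp3- cells, 1862 and 1913 in CD25hi and CD25lo Foxp3+ cells, and 245 in CD25- Foxp3- cells. The egress receptors S1pr1 and S1pr4 were 2.31-fold and 2.49-fold lower and Cxcr4 2.04-fold. Of 19 adhesion genes, Cd44, Itgb1 and Itgb8 were at least 2-fold higher and Icam2, Itgb3, Itgb7, Selplg and Pecam1 at least 2-fold lower. Cd44, the hyaluronan receptor of antigen-experienced cells, read 2744 against 1175.

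Costimulatory and checkpoint receptors were mostly higher. Of 29 measured genes of the CD28, B7 and TNF families, 13 were at least 2-fold higher and none 2-fold lower. The CD25+ Foxp3- reading was above both Foxp3+ readings for 8 of the 29, against 37.3% of all measured genes. Pdcd1lg2, the PD-1 ligand PD-L2, read 239 in CD25+ Foxp3- against 30.6 in CD25- Foxp3- cells, the TNF receptors Tnfrsf4 (OX40) 1539 against 221 and Tnfrsf9 (4-1BB) 556 against 110.0, and Cd200 909 against 136. Lag3, an inhibitory receptor that binds MHC class II, was 5.66-fold, the TNF ligand Tnfsf14 (LIGHT) 4.25-fold, Cd160 3.72-fold and Ctla4 3.15-fold higher. Pdcd1 (PD-1) read 367 against 159.6 and Icos 5473 against 2574. Cd28 was level, at 3299.8 against 3108. In the activation and memory list 8 of 21 genes were at least 2-fold higher, namely Cd83, Lgals3, Anxa1, S100a4, Ahnak, Id2, Itgb1 and Cd44, and 1 was lower, Crip1. Cd69, the earliest surface mark of activation, read 1955 against 1754.

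Early response genes of the T cell receptor did not follow the activation receptors as a group. Of 31 measured, 5 were at least 2-fold higher and 1 lower, with a median log2 difference of -0.19. Dusp4, a phosphatase that limits ERK, read 830.4 in CD25+ Foxp3- against 119.5 in CD25- Foxp3- cells, Irf4, which scales with receptor signal strength, 1579 against 249.8, and Egr2 1370.1 against 432. Rel and Irf8 were 2.92-fold and 2.72-fold higher, and the kinase Pim1 2.75-fold lower. Immediate early genes such as Fos (7628 against 9245), Egr1 (560.3 against 891), Junb (1862 against 2628) and Nr4a1 (657 against 808) were lower by less than 2-fold, and Myc read 802 against 466. The direction of this list's median depends on the probe set: read from each gene's second probe set it was 0.45. Another list joined parts of the IL-2 receptor pathway with targets of STAT5, the factor downstream of that receptor. Of its 19 measured genes 5 were at least 2-fold higher, above the background share, and 1 lower, near it. The list's median log2 difference was 0.04. Socs2 (382 against 70.2, with 3 probe sets between 0 and 2.61 on the log2 scale), Cdk6, Lta, Cish and Il2rb were the 5, and Pim1 the one lower.

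Many transcription factors on the lineage list were higher. Of 35 measured, 17 were at least 2-fold higher and 1 lower, Runx1. Of the 30 that reached the filter intensity in both arrays, 12 were at least 2-fold higher and 1 lower. In CD25- Foxp3- cells Tbx21, Zbtb16 and Batf3 lay under that intensity. Tbx21 (T-bet, of helper type 1 cells) read 227 in CD25+ Foxp3- cells, 20.5 in CD25hi and 67.6 in CD25lo Foxp3+ cells, and 20.2 in CD25- Foxp3- cells. Maf, which drives Il21 and Il10, read 3904, 1942 and 6039.9 in those 3 populations against 585 in CD25- Foxp3- cells. Bhlhe40, Ahr, Ikzf4 (Eos), Ikzf2 (Helios) and Batf3 were 7.37-fold, 5.63-fold, 5.48-fold, 4.52-fold and at least 7.51-fold higher, and Zbtb16 (PLZF, the factor of innate-like T cells) 4.81-fold. Rora was 3.02-fold higher, and all 6 of its measured probe sets were at least 3.02-fold higher. Gata3, of helper type 2 cells, and Bcl6, of follicular helper cells, stayed within 2-fold, with 566 against 426 and 476 against 302. Of 16 follicular helper genes 9 were at least 2-fold higher, among them Il21, Maf, Cd200, Tnfsf8 and Pou2af1, while the follicle-homing receptor Cxcr5 read 335 against 286.

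Genes associated with regulatory T cells were mostly higher in these cells without Foxp3. Of 30 measured, 22 were at least 2-fold higher than in CD25- Foxp3- cells and none 2-fold lower, with a median log2 difference of 2.04. This list holds genes known from profiles like the present one and is not independent evidence of its direction. Penk (proenkephalin) was at least 26.04-fold, the neuronal surface protein Nrn1 8.53-fold, Fgl2 7.93-fold and the IL-27 and IL-35 subunit Ebi3 6.02-fold higher. The 8 within 2-fold were Ecm1, Gpr83, Klrg1, Izumo1r, Swap70, Itgae, Tnfrsf18 and Prdm1. Gpr83 read 315 in CD25+ Foxp3- cells, 4426 and 1349.6 in CD25hi and CD25lo Foxp3+ cells, and 323 in CD25- Foxp3- cells. Izumo1r (folate receptor 4) read 1324 in CD25+ Foxp3- cells, 4874 and 3441 in CD25hi and CD25lo Foxp3+ cells, and 1079 in CD25- Foxp3- cells. Of the 30 genes, 3 read higher in the CD25+ Foxp3- array than in both Foxp3+ arrays, against 37.3% of all measured genes. Those 3, Penk, Ebi3 and Lag3, also read highest of the 4 arrays in it, against 30.1% of all measured genes.

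Many genes of the resting state were lower. Of 30 measured naive and resting T cell genes, 15 were at least 2-fold lower and 2 at least 2-fold higher, with a median log2 difference of -0.95, and all 30 reached the filter intensity in both arrays. Besides Igfbp4, Dapl1, Tsc22d3 and Klf2, the Wnt-pathway factor Lef1 read 526 in CD25+ Foxp3- against 2026 in CD25- Foxp3- cells, Klf7 226 against 834, the JNK phosphatase gene Dusp10 176 against 559 and Txnip, a brake on glucose uptake, 1281 against 3639. The PI3K inhibitor Pik3ip1 was 2.79-fold and the diacylglycerol kinase Dgka 2.45-fold lower. Rbl2 and Klf4 were the 2 higher. Foxo1, which sustains Klf2 and Il7r, read 1397 against 2617, within 2-fold.

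T cell receptor genes read modestly lower in CD25+ Foxp3- cells. All 4 CD3 chain genes were lower, with log2 differences between -0.70 and -0.53: Cd3e read 497 in CD25+ Foxp3- cells, 837 in CD25hi and 806 in CD25lo Foxp3+ cells, and 808 in CD25- Foxp3- cells. Cd4 read 2434 against 2948. Across the CD4 T cell identity list 13 of 16 genes were lower by any amount, against 50.7% of all genes, but 1 of 16 reached 2-fold, Trat1 (the receptor-associated adaptor TRIM), at 537 against 1844. The CD25+ Foxp3- array was the dimmest of the 4 for 11 of the 16. The list's median log2 difference was -0.57, but 0.11 when read from each gene's second probe set. Proximal signalling genes had 2 of 27 at least 2-fold lower, Sit1 and Dgka, and none 2-fold higher, a share near the background. The defining CD4 T cell genes (Cd3d, Cd3e, Cd3g, Cd4, Cd5, Cd28, Zap70, Thy1 and Bcl11b) read 497 or more in both arrays.

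Interferon-stimulated genes read mostly lower. Of 36 measured interferon-stimulated genes, 12 were at least 2-fold lower and 1 at least 2-fold higher, with a median log2 difference of -0.55. Oas2, a sensor of double-stranded RNA, read 63.9 in CD25+ Foxp3- cells, 64.2 in CD25hi and 59.7 in CD25lo Foxp3+ cells, and 454 in CD25- Foxp3- cells, so the CD25- Foxp3- array alone was high. Ifit1 read 156 in CD25+ Foxp3- against 582 in CD25- Foxp3- cells and Usp18, which dampens interferon signalling, 223 against 552. Ifit3, Oasl1, Mx2 and Ddx58 (the RNA sensor RIG-I) were between 2.40-fold and 3.53-fold lower. In 24 of the 36 the CD25+ Foxp3- array was the dimmest, against 30.6% of all measured genes. The exception was the GTPase gene Gbp3, 3.35-fold higher in CD25+ Foxp3- cells.

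**Figure D5:**
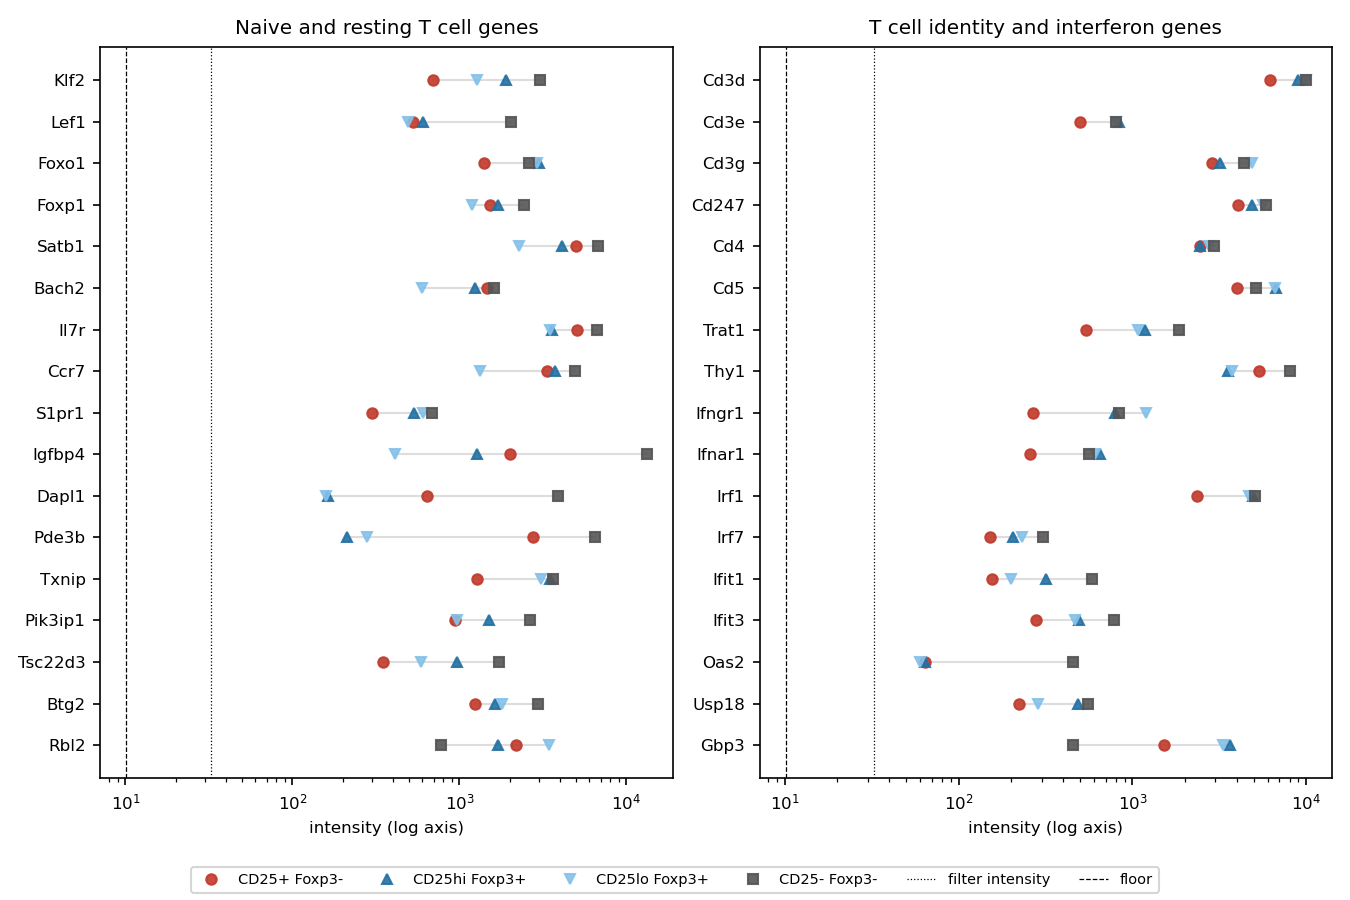
Intensities (log axis) of naive and resting T cell genes (left panel) and of T cell identity and interferon genes (right panel) in the 4 arrays, marked as in the plot of replication and mitosis genes. CD25- Foxp3- cells (grey squares) read highest for Igfbp4, Dapl1, Klf2, Lef1, Oas2 and Ifit1, and the CD25+ Foxp3- array (red circles) lowest of the 4 for Klf2, Txnip, Ifngr1, Irf1 and Cd3d.

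Genes known from innate-like T cells and innate lymphoid cells stood out among the widest differences. Of 16 measured genes on the innate-like T cell list, 12 were at least 2-fold higher in CD25+ Foxp3- cells and none 2-fold lower, with a median log2 difference of 2.17. Of the 10 that reached the filter intensity in both arrays, 6 were at least 2-fold higher, with a median log2 difference of 1.36. Kit, Il17re, Zbtb16, Il17a and Blk were measured only through the CD25+ Foxp3- array. Kit, the stem cell factor receptor, read 399, against 11.7 or less in each of the other 3 arrays, and its other probe set read 27.8 in CD25+ Foxp3- against 12.7 in CD25- Foxp3- cells. The lectin-like receptor Klrb1f read 370.0 in CD25+ Foxp3- cells, 13.5 in CD25hi and 33.8 in CD25lo Foxp3+ cells, and was under the floor in CD25- Foxp3- cells. Klrb1b was at least 18.5-fold higher, and Fcer1g, the signalling chain of Fc and NK receptors, 13.7-fold. The 4 measured probe sets of Klrb1b ranged in log2 difference from 1.21 to 4.21. Cntn1, which lay under the floor in the other 3 arrays, read 583 and 161 with its 2 measured probe sets. Id2, the inhibitor that innate lymphoid cells depend on, read 9203 in CD25+ Foxp3- cells, 970.4 and 1589 in CD25hi and CD25lo Foxp3+ cells, and 2858 in CD25- Foxp3- cells, but its 3 measured probe sets ranged in log2 difference from -0.22 to 1.69. On the innate lymphoid cell list 11 of 18 genes were at least 2-fold higher, with none 2-fold lower, though Il7r, Thy1 and Ltb were lower by less than 2-fold. Kit, Cntn1 and Ncr1 of that list were measured only through the CD25+ Foxp3- array. Among its 14 genes that reached the filter intensity in both arrays, 8 were at least 2-fold higher. The CD25+ Foxp3- reading was above both Foxp3+ readings for 10 of its 18 genes, against 37.3% of all measured genes. Among its genes at least 2-fold higher, Nrp1, Ahr, Rora and Gfi1 were not above both. Nrp1 read 1053 in CD25+ Foxp3- cells, against 3683 in CD25hi and 5447 in CD25lo Foxp3+ cells. Genes of NK and cytotoxic cells were mixed: 8 of 21 were at least 2-fold higher, while 3 were 2-fold lower, Prf1, Klrd1 and Gzma. Of the 14 that reached the filter intensity in both arrays, 3 were at least 2-fold higher and 3 lower. Perforin (Prf1) read 49.96 against 176, and the granzyme gene Gzmk 416 against 139. The part of such cells in the other differences was not tested.

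Markers of other cell types did not move in one direction. Of 14 measured B cell markers 2 were at least 2-fold higher, Cd74 and Cd22, and 1 was lower, Ms4a1, and the summed intensity of the list was 19936 in CD25+ Foxp3-, 11552 in CD25hi Foxp3+, 13862 in CD25lo Foxp3+ and 19647 in CD25- Foxp3- cells. Ighm, the heavy chain of IgM, made up much of these sums, with 10053 in CD25+ Foxp3- against 14192 in CD25- Foxp3- cells and 8 probe sets between -2.04 and 0.79 on the log2 scale. The other 13 genes summed to 9883 in CD25+ Foxp3-, 2668 in CD25hi Foxp3+, 3956 in CD25lo Foxp3+ and 5455 in CD25- Foxp3- cells. Cd79a, Pax5, Ebf1, Cr2, Fcer2a, Blnk and Spib lay under the filter intensity in all 4 arrays. Cd74, the invariant chain of MHC class II, read 2806 against 681, and H2-Aa 1877 against 1098. Of 15 CD8 T and NK cell markers 5 were at least 2-fold higher and 3 lower, with sums of 3545 in CD25+ Foxp3-, 1258 in CD25hi Foxp3+, 1954 in CD25lo Foxp3+ and 3762 in CD25- Foxp3- cells. Of the 11 that reached the filter intensity in both arrays 3 were at least 2-fold higher and 3 lower, and the list's median log2 difference was then -0.58, against 0.41 over all 15. Cd8a read 185 against 351. Of 14 myeloid markers 2 were at least 2-fold higher, Fcer1g and the macrophage gene Adgre1, and 3 lower, S100a8, Lyz2 and Csf1r (3 probe sets between -1.06 and 0.07 on the log2 scale), with Itgam, Itgax, Cd14 and Flt3 among the 10 under the filter intensity in every array. Their sums were 10268 in CD25+ Foxp3-, 12316 in CD25hi Foxp3+, 10080.5 in CD25lo Foxp3+ and 13193 in CD25- Foxp3- cells. Of 6 red cell markers Car2 was higher and Klf1 and Alas2 were lower, and the sums were 1817 in CD25+ Foxp3-, 586 in CD25hi Foxp3+, 527 in CD25lo Foxp3+ and 1161 in CD25- Foxp3- cells. Without Car2 the other 5 summed to 532 in CD25+ Foxp3-, 468 in CD25hi Foxp3+, 192 in CD25lo Foxp3+ and 900.1 in CD25- Foxp3- cells. Of 10 mast cell and basophil markers with a probe set, only Kit and Cpa3 were measured: Cpa3 read 15.8 in CD25+ Foxp3- against 56.02 in CD25- Foxp3- cells, and Fcer1a, Mcpt8, Ms4a2, Tpsb2 and Gata2 lay under the filter intensity in all 4 arrays. The 2 measured genes summed to 414 in CD25+ Foxp3-, 18.1 in CD25hi Foxp3+, 25.5 in CD25lo Foxp3+ and 67.7 in CD25- Foxp3- cells. The part of these cell types in the differences above was not tested. With the listed markers themselves left out, 1150 genes were at least 2-fold higher and 609 lower. Such a count drops only those genes and cannot show what else these cell types contributed. Housekeeping genes, 15 of them, all lay within 2-fold by their brightest probe set, with a median log2 difference of -0.01. Other probe sets of some passed 2-fold: those of Ywhaz ranged in log2 difference from -1.19 to 1.64, and Actb and Tfrc reached 1.10 and 1.78.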

How the data were processed

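One array was measured for each of 4 sorted CD4+ T cell populations. The table deposited by the authors gives 1 linear intensity per probe set and array. The sources used here do not state how probes were summarised, background corrected and normalized, so an effect of those steps on low readings cannot be judged, and amplification of the RNA may compress or skew ratios. The column medians lay within 10% of each other and the deposited intensities were kept without rescaling.

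Control probe sets (64) were left out. The platform annotation gave 1 gene for 34945 probe sets, several for 932 and none for 9160, and genes were named from the first kind only, of which 34741 matched RefSeq by Entrez ID. A gene was read from its measured probe set with the highest mean log2 intensity. The log2 difference was taken after setting readings under the floor (40th percentile) to it, and the measured genes reached the 60th percentile in at least 1 array. A fold against a reading at the floor is a lower bound. No test was run, since each population had 1 array: lists are described by counts at 2-fold and by medians, beside the same over all measured genes. Precision is limited by the number of arrays.

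The 36 gene lists and the comparison itself were chosen with earlier results of these data known. Named are Il2ra and Foxp3, the 20 genes at each end of the difference among those that reached the filter intensity in both arrays, up to 8 members per list with the largest differences, members that complete a complex, and all members where 5 or fewer passed 2-fold in a direction. Other members named or plotted were chosen after their values were seen. Alternatives were other scalings, floors, filters, probe sets and folds. The calculation was tested on simulated data. Python 3.11.15, pandas 2.3.3, numpy 2.4.6, scipy 1.17.1 and matplotlib 3.10.9 were used.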

Additional observations from a re-analysis of the deposited data

Results flagged for a closer look

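In 3 gene lists the median log2 difference with CD25 was above 0.5 in size in both contrasts but ran one way in cells without Foxp3 and the other way in cells with it. Other lists had opposite signs with a smaller median on at least 1 side. The difference between the contrasts was not tested, and each contrast is 1 array against 1 array. The chemokine list, 5 genes, had a median log2 difference of -1.20 for CD25hi minus CD25lo Foxp3+ cells and 1.71 for CD25+ Foxp3- minus CD25- Foxp3- cells. The value of 1.71 rests on genes measured only through the CD25+ Foxp3- array: it was 0.19 with the filter in both arrays and 0.53 with no filter. The activation and memory list had medians of -0.60 in the Foxp3+ contrast and 0.68 in the Foxp3- contrast, and the T follicular helper list -1.27 in the Foxp3+ contrast and 1.05 in the Foxp3- contrast. Among measured probe sets with no gene listed, which enter no comparison above, 114 of 2103 (5.42%) were at least 2-fold higher in CD25+ Foxp3- than in CD25- Foxp3- cells, under the 12.1% of genes, and 315 were at least 2-fold lower.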

How the results depend on the processing

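Counts of genes at least 2-fold higher and lower in CD25+ Foxp3- cells were within 1.5 times of 1161 and 619 under other scalings, floors, filters and the median of probe sets (817 to 1223 higher and 479 to 692 lower). Read from each gene's second probe set, which 4426 genes have, they were 587 and 248. A 3-fold threshold gave 504 and 116, and a 1.5-fold threshold 2146 and 1714. The second probe set turned the median log2 difference of 5 lists, to 0.11 for CD4 T cell identity, 1.17 for adhesion and homing, 0.45 for the early T cell receptor response, -0.018 for apoptosis and survival and 0.037 for B cell markers, and gave -0.14 for Rbm26. The median of CD8 T and NK cell markers was -0.58 under the filter in both arrays and in both Foxp3+ arrays, and that of mast cell and basophil markers -0.11 with no filter. The cause was not tested. Without the replication and mitosis lists, an alternative added after seeing the data, 1066 genes were higher, and without the innate-like and innate lymphoid lists, added likewise, 1140. These counts drop only the listed genes, so they do not measure the part of dividing or innate-like cells in the rest. No paired analysis was possible because each population has 1 array. Low readings have little signal over background: 345 of the higher genes had a CD25- Foxp3- reading under the filter intensity.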

Other observations

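A minority of the genes on the cell death and respiration lists were at least 2-fold higher. Of 23 measured apoptosis and survival genes, 5 were at least 2-fold higher than in CD25- Foxp3- cells and none 2-fold lower, beside 12.1% and 6.43% of all measured genes. They were the inflammatory caspases Casp4 and Casp1, the death agonist Bid, and the survival genes Bcl2l1 (Bcl-xL) and Bcl2l2. The list's median log2 difference was 0.32, but -0.018 from each gene's second probe set. Of 24 genes on the oxidative phosphorylation list, 4 were at least 2-fold higher, Idh3a, Ndufb6, Cox5a and Cycs (cytochrome c), and none lower. The share that was higher was near the 12.1% of all measured genes, and the list's median log2 difference was 0.22. The 3 measured probe sets of Idh3a ranged in log2 difference from 0.05 to 1.90.

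The CD25 contrast within Foxp3+ cells, which shares no array with the Foxp3- contrast, was smaller in count, since 309 genes read at least 2-fold above and 242 at least 2-fold below in CD25hi relative to CD25lo Foxp3+ cells (3.21% and 2.51% of measured genes). Higher in both contrasts were 80 genes, 6.89% of the genes higher in the Foxp3- contrast and 25.9% of those higher in the Foxp3+ contrast, beside 3.21% and 12.1% of all measured genes. Another 88 were higher in the Foxp3- and lower in the Foxp3+ contrast, 7.58% of the genes higher in the Foxp3- contrast and 36.4% of those lower in the Foxp3+ contrast. Across 9625 genes, which are not independent replicates, Pearson's r between the differences was -0.15 and Spearman's rho -0.17, as a description.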
